A study of Mus musculus with 4 samples.

Results

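The genes of chemokines and of their receptors were compared between septal nasal mucosa of young adult and aged mice. Members were all genes whose array probes carry an accession that maps to a symbol of the *Ccl*, *Cxcl*, *Ccr* or *Cxcr* series, to *Cx3cl1*, *Cx3cr1*, *Xcl1* or *Xcr1*, or to the atypical receptors *Ackr1* to *Ackr4*. The rule uses gene names only, but it was set with earlier results of these data known. It gave 58 genes, measured by 74 of the 56605 probes on the array and tested among 45604 genes in all. Of the 58, 35 encode ligands, 19 encode signalling receptors and 4 encode atypical receptors. Each age had 2 arrays, and each array was hybridized with Cy3-labelled RNA pooled from 5 mice. The mice were C57BL/6J by the labels (C57BL/6 in the paper's methods), untreated as far as the labels of the tissue collection say, and were 8 weeks old in the young adult group and 16 months old in the aged group. The tissue is labelled olfactory epithelium, while the collection protocol names the septal nasal mucosa, which also holds lamina propria with its vessels, glands and leukocytes. The labels also carry a description of silica aspiration and lung that is at odds with their titles and with the paper, and it was not used.

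On every array 59305 spots were non-control spots, of which between 63.1 and 76.8% were well above background, and 0 spots were saturated. All 8 markers of mature olfactory receptor neurons (ORNs) were well above background on all 4 arrays. The paper's methods call the mice male, but *Xist*, the RNA that silences an X chromosome in female cells, was at 612 to 645 on the 4 arrays, while 0 of 7 probes for 4 Y-linked genes were above background. This held in both ages. The young adult 1 and aged 1 arrays shared a slide, and no other arrays did. No source says that the pools of an age came from separate mice. The paper's methods count fewer mice per age for gene analyses than separate pools of the stated size would need. If that count covers the arrays, the pools of an age shared mice and were not independent. The errors below rest on the spread between pools, which may be technical in part, and cannot be taken as variation between independent mice. The fit's standard errors also draw on the spread of all genes, so they do not measure a gene's own pools alone. In RNA of whole mucosa, fewer cells of a type and less RNA per cell cannot be told apart.

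Chemokines are small secreted or membrane-bound proteins that guide leukocytes along a gradient by binding G protein-coupled receptors on their surface. Inflammatory chemokines are induced by infection or injury and draw neutrophils and monocytes from blood, whereas homeostatic chemokines direct lymphocytes and dendritic cells through lymphoid and barrier tissue. Atypical receptors bind chemokines without the usual G protein signal and act as scavengers. In the olfactory mucosa, resident macrophages, and signals that recruit further leukocytes, are known to attend the clearance of dying ORNs and their replacement from basal cells.

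Levels below are quantile-normalized intensities with no unit, and levels of different genes come from different probes and cannot be set against each other. Summed levels of marker lists, given below as a description, are therefore dominated by the genes with the brightest probes. Differences are log2 fold changes of aged over young adult mice with the standard error (SE) of limma's fit. A gene was called when its P was below 0.05 and its FDR, adjusted over all genes tested, was below 0.25. Of the 58 members, 7 were called lower and 2 higher in aged mice. Below, a gene that fell or rose is one called lower or higher. The fractalkine receptor *Cx3cr1*, the monocyte receptor *Ccr2* and the ligands *Cxcl5*, *Ccl6*, *Ccl12*, *Ccl20* and *Ccl21a* fell, and the receptor *Ccr7* and the ligand *Ccl17* rose. Among all genes tested 3.98% were called, 2.33% lower and 1.65% higher. The called members were thus 15.5% of the members, a description for which no test was made. With a mean level of at least 100 and a fold change of at least 1.5 also required, 6 members remained, 4 lower and 2 higher, where 1.96% of all genes did, 1.15% lower and 0.814% higher. Without a limit on the FDR, 17 members had a P below 0.05, as had 13.1% of all genes. The median difference over the members was −0.14 and that over all genes was 0.01, with 34 of 58 members and 48.5% of all genes below 0. For 32 members the 2 aged arrays lay wholly to one side of the 2 young adult arrays, 20 below and 12 above, and this separation was shown by 46% of all genes, 21.8% below and 24.2% above.

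**Figure D1:**
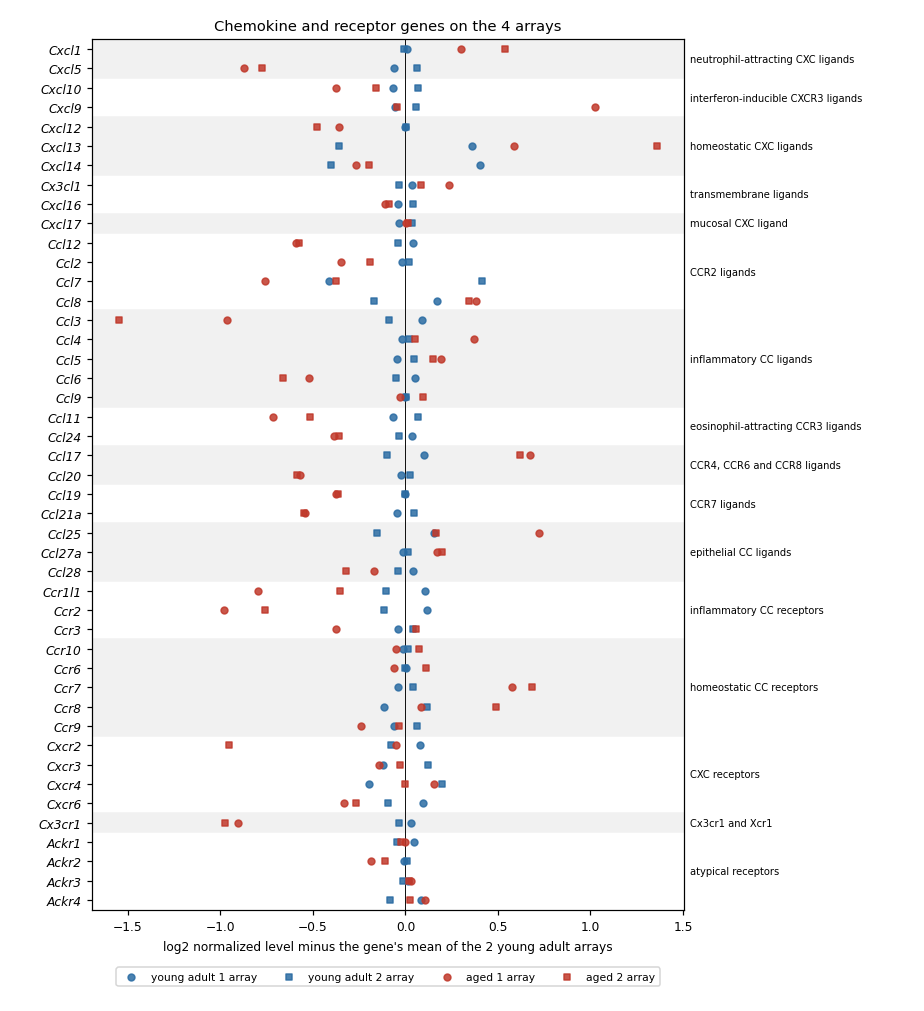
Log2 normalized level of each member on each array, set against the gene's mean of the 2 young adult arrays, for the members above background on at least 1 array that are reported here, grouped by role. The aged points of *Cx3cr1*, *Ccr2*, *Cxcl5*, *Ccl6*, *Ccl12*, *Ccl20* and *Ccl21a* lie left of both young adult points, and those of *Ccl17* and *Ccr7* lie right of them.

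Not every member could be measured. A probe well above background on all 4 arrays existed for 36 members, and 41 had this on both arrays of at least 1 age. For 12 members no probe was above background on any array, namely the ligands *Ccl1*, *Ccl22*, *Ccl26*, *Cxcl2*, *Cxcl3*, *Cxcl15* and *Xcl1* and the receptors *Ccr1*, *Ccr4*, *Cxcr1*, *Cxcr5* and *Xcr1*. Another 10, including *Ccl3*, *Ccl7*, *Cxcl9*, *Cxcl13* and *Cxcr2*, were above background on some arrays. Ligands were measured in both arrays of an age for 26 of 35 genes, receptors for 11 of 19 and atypical receptors for all 4.

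Among the CXC ligands that attract neutrophils, *Cxcl5* fell in aged mice. *Cxcl5* encodes a ligand of the receptor CXCR2 made largely by epithelial cells. Its level was 3485 and 3808 in young adult mice and 1985 and 2124 in aged mice, so the ages did not overlap. The means were 3646 ± 228 (SD, n = 2 pools) and 2055 ± 98.2, a difference of −0.83 (SE 0.096, FDR = 0.191 by limma) or a 1.77-fold lower level. *Cxcl1*, another CXCR2 ligand and a neighbour of *Cxcl5* in the genome, lay on the other side of 0. It was at 188 and 185 in young adult mice and at 230 and 271 in aged mice, a difference of 0.42 that was not called (SE 0.12, FDR = 0.329). The remaining members of this gene cluster, *Cxcl2*, *Cxcl3* and *Cxcl15*, were not above background on any array. The receptor gene *Cxcr2* was at 99.0 and 88.7 in young adult mice and at 90.4 and 48.4 in aged mice, and it was above background on only 1 aged array (difference −0.50, FDR = 0.622). The aged 2 array lay below both young adult arrays, while the aged 1 array lay between them.

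Markers of neutrophils moved beside *Cxcl5*. Of the 8 measured genes of that list 4 fell, and all 8 were below 0, with a median of −0.61. *S100a8* and *S100a9*, the subunits of calprotectin, fell by 1.07 and 1.08 on the log2 scale. The summed level of the list was 12652 to 13345 in young adult mice and 6821 to 6898 in aged mice. *Elane* and *Mpo*, which mark neutrophil precursors, had differences of −0.17 (FDR = 0.714) and −0.18 (FDR = 0.663). The part of such cells in the *Cxcl5* result was not tested.

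None of the interferon-inducible ligands of CXCR3, which draw activated T cells, was called, and neither was the receptor. *Cxcl10* was at 220 and 242 in young adult mice and at 178 and 206 in aged mice (difference −0.27, FDR = 0.482). *Cxcl9* was above background on a young adult array only. *Cxcr3* itself had a difference of −0.09 (FDR = 0.806), and the 2 ages overlapped.

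The homeostatic CXC ligands gave no call. *Cxcl12*, which retains stem cells and leukocytes through CXCR4, came close to the FDR limit, with 3781 and 3801 in young adult mice and 2952 and 2724 in aged mice. The difference was −0.42 (SE 0.086, FDR = 0.264), and its probes gave the same value. The signalling receptor *Cxcr4* had a difference of 0.08 (FDR = 0.884), but its probes opposed each other, with 0.39 for the brighter and −0.24 for the dimmer probe. The atypical CXCL12 receptor *Ackr3* was at 6437 ± 68.9 (SD, n = 2 pools) in young adult and 6551 ± 37.2 in aged mice (difference 0.03, FDR = 0.907). *Cxcl13*, the B cell attractant of lymphoid follicles, had a difference of 0.97 that rested on unequal arrays, 56.3 and 34.1 in young adult against 65.7 and 112 in aged mice. It was above background on only 1 young adult array and was not called (SE 0.41, FDR = 0.458), and the difference ranged from 0.53 to 1.80 over the other ways of processing or testing.

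*Cx3cl1* and *Cxcl16* encode ligands that are made as transmembrane proteins and can be shed. *Cx3cl1* was at 6194 and 5889 in young adult mice and at 7114 and 6391 in aged mice (difference 0.16, FDR = 0.583). *Cxcl16* had a difference of −0.10 (FDR = 0.653) and probes that disagreed, at −0.32 and 0.12. Its receptor *Cxcr6*, found on T cells and innate lymphocytes, was at 524 and 460 in young adult mice and at 390 and 408 in aged mice, without a call (difference −0.30, FDR = 0.396). *Cxcl17*, a mucosal chemokine, had means of 3884 ± 140 and 3906 ± 25.4 (difference 0.01, FDR = 0.970).

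Among the ligands of CCR2, *Ccl12* fell and the others were not called. *Ccl12* encodes a mouse monocyte attractant. It was at 207 and 197 in young adult mice and at 134 and 135 in aged mice, with no overlap (difference −0.58, SE 0.080, FDR = 0.206). *Ccl2*, the principal monocyte attractant, was at 219 and 225 in young adult and at 174 and 195 in aged mice (difference −0.27, FDR = 0.402). *Ccl8* lay on the other side of 0, with 607 and 480 against 702 and 686 (difference 0.36, FDR = 0.450). *Ccl7* was above background on only 1 young adult array and had a difference of −0.57 (FDR = 0.591). These 4 genes lie in a cluster with *Ccl11* and *Ccl1*, in which *Ccl12* alone was called.

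*Ccl11* encodes eotaxin, which attracts eosinophils through CCR3, and it narrowly missed the FDR limit. Its level was 128 and 141 in young adult mice and 81.7 and 93.7 in aged mice, with no overlap (difference −0.62, SE 0.12, FDR = 0.251). *Ccl24*, a further CCR3 ligand, was above background in both young adult pools but only 1 aged pool, and its difference was −0.37 (FDR = 0.269). *Ccr3* itself was above background on 1 array of each age and overlapped between the ages. Of 8 markers of eosinophils and mast cells 1 fell, the receptor tyrosine kinase *Kit*, which other cells also express. The eosinophil marker *Epx* was not above background on any array. The summed level of that list was 2037 to 2168 in young adult and 1666 to 1741 in aged mice, and its part in the *Ccl11* values was not tested.

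Of the inflammatory CC ligands that draw monocytes and T cells, *Ccl6* fell. This mouse chemokine, made by myeloid cells, was at 1286 and 1198 in young adult mice and at 865 and 784 in aged mice (difference −0.59, SE 0.10, FDR = 0.232). *Ccl3*, the macrophage inflammatory protein 1α gene, was at 83.1 and 73.5 in young adult mice. It was not well above background on either aged array, at 40.0 and 26.8. Set against the lowest signal among probes well above background there, or its own signal where higher, its level was at least 2.20-fold lower in aged mice, with an FDR of 0.252 that just missed the limit. *Ccl9*, next to *Ccl6* in the same cluster, was at 2594 ± 0.236 and 2659 ± 163 (difference 0.03, FDR = 0.892). *Ccl5*, the T cell product RANTES, was at 877 and 937 in young adult and at 1037 and 1006 in aged mice (difference 0.17, FDR = 0.506). *Ccl4* had probes that disagreed, at 0.86 and −0.43. The cluster of *Ccl3*, *Ccl4*, *Ccl5*, *Ccl6* and *Ccl9* therefore held 1 call among 5 neighbouring genes.

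*Ccl17* was the only ligand called higher in aged mice. It encodes a ligand of CCR4, made mainly by dendritic cells, that attracts type 2 helper and regulatory T cells. Its level was 347 and 302 in young adult mice and 516 and 497 in aged mice. The means were 325 ± 31.6 (SD, n = 2 pools) and 506 ± 13.7, a 1.56-fold higher level in aged mice (difference 0.64, SE 0.11, FDR = 0.232). The other CCR4 ligand, *Ccl22*, and *Ccr4* were not above background on any array. *Ccl17* lies beside *Ccl22* and *Cx3cl1* in the genome.

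*Ccl20* fell in aged mice. This epithelial chemokine attracts B cells, dendritic cells and type 17 helper T cells through CCR6. It was at 755 and 782 in young adult mice and at 517 and 512 in aged mice, a difference of −0.58 (SE 0.076, FDR = 0.203). *Ccr6*, its receptor, was at 99.8 and 99.6 in young adult mice and at 95.4 and 108 in aged mice (difference 0.02, FDR = 0.938).

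Of the CCR7 ligands *Ccl21a* fell, and the receptor gene *Ccr7* rose. *Ccl21a* and *Ccl19* encode the homeostatic chemokines that lead dendritic cells and naive T cells along lymphatic vessels and into lymph nodes. *Ccl21a* was at 16571 and 17608 in young adult mice and at 11715 and 11681 in aged mice, and it fell (difference −0.55, SE 0.081, FDR = 0.211). Near-identical copies of *Ccl21a* exist in the mouse genome and the probe cannot tell them apart. *Ccl19*, its neighbour, was at 553 on both young adult arrays and at 426 and 429 on the aged arrays, just outside the FDR limit (difference −0.37, SE 0.074, FDR = 0.258). *Ccr7* was at 88.2 and 93.1 in young adult mice and at 135 and 146 in aged mice, a 1.55-fold rise (difference 0.63, SE 0.089, FDR = 0.208). Its brighter probe gave 0.65, and the dimmer probe, above background on 1 array of each age, gave 0.61.

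Cell type markers that bear on this axis are given beside it. Of 5 markers of lymphatic endothelium, the vessel type that makes CCL21, 0 were called and the median was −0.01. *Prox1*, the lymphatic master regulator, was at 213 and 232 in young adult and at 234 and 225 in aged mice. The list was not uniform, with 2 genes above 0 and 3 below. *Mmrn1* had a difference of −0.45 (FDR = 0.264) and *Flt4*, above background on 3 arrays, one of −0.40 (FDR = 0.417). The summed level of that list, most of it from *Pdpn*, was 8236 to 8567 in young adult and 7771 to 8038 in aged mice. Of 7 markers of dendritic cells, which carry CCR7 when they mature and make CCL17, 3 fell, *Itgax*, *Cd209a* and *Clec9a*, the last above background on 1 array only, and 0 rose, with a summed level of 2785 to 2810 against 2286 to 2405. *Xcr1* was not above background. Of 9 measured markers of T and NK cells 0 were called, the median was 0.04, and *Cd8a* and *Ncr1* were not above background. The summed level was 1169 to 1550 against 1282 to 1305. The part of these cells in the *Ccl17*, *Ccl21a* and *Ccr7* values was not tested.

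The epithelial CC ligands gave no call. *Ccl27a*, of skin and other epithelia, was at 2312 and 2357 in young adult and at 2625 and 2677 in aged mice (difference 0.18, FDR = 0.444). *Ccl28*, a mucosal ligand that attracts cells secreting IgA, was at 634 and 601 in young adult and at 549 and 495 in aged mice (difference −0.24, FDR = 0.438). *Ccl25* had a difference of 0.44 (SE 0.26, FDR = 0.561), and 1 of its 3 probes accounted for most of it, with 597 on the aged 1 array against 143 on the aged 2 array.

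Promoter sequence was available for 44 of the 58 members and for 7 of the 9 called ones, not for *Ccr7* or *Cxcl5*. It was taken from RefSeq, build GRCm38.p6, as the 250 bases before the annotated start. The promoters of *Ccl12*, *Ccl17* and *Ccl20* are shown because these ligands changed and because their matches to the motifs of inflammatory gene control that were searched differ in kind. Each is written 5′ to 3′ on the gene's strand, with the motifs in capitals. *Ccl12* lies at chr11:82101595-82101844, *Ccl17* at chr8:94810203-94810452 and *Ccl20* at chr1:83116516-83116765, all on the plus strand.
Ccl12: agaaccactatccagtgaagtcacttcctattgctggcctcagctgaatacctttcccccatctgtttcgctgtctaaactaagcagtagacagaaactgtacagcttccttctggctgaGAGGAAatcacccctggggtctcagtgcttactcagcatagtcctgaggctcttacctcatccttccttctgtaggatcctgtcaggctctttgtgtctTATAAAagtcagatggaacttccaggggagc
Ccl17: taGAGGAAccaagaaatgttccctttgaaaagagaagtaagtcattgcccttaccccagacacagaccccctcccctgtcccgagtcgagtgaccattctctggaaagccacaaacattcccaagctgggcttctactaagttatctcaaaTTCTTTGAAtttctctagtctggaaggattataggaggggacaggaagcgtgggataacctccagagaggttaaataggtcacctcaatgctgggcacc
Ccl20: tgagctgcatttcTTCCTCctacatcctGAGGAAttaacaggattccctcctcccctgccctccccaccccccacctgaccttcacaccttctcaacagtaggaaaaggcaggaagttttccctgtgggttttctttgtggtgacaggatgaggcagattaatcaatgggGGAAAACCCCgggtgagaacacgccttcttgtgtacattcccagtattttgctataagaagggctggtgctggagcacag

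In the *Ccl12* promoter the capitals mark the TATA box TATAAA at 31 to 26 bases before the start and the PU.1-like GAGGAA at 130 to 125. In that of *Ccl17* they mark a STAT-like motif of the form TTCNNNGAA at 99 to 91 and GAGGAA at 248 to 243. In that of *Ccl20* they mark an NF-kB-like motif (GGG and TTTCC with any 2 bases between them), read on the minus strand, at 80 to 71, and GAGGAA at 237 to 232 on the minus strand and at 222 to 217. Both strands were searched in 32851 promoters, and none of the matches shown overlap. The NF-kB-like motif was in 1.41% of all promoters and in 6 of the 48 promoters of members, some of which have several starts. TATAAA was in 12.4% of all promoters and in 14 of 48, GAGGAA in 23.3% and 14, TTCNNNGAA in 7.02% and 4, and the AP-1-like TGANTCA in 6.75% and 5. The interferon response-like motif (GAAA, any 2 bases and GAAA) was in 2.98% of all promoters and in 3 of 48, and the SP1-like GGGCGG in 32.7% and 8. Of the 7 called members with a promoter, GAGGAA was in 4, the NF-kB-like motif in *Ccl20*, TTCNNNGAA in *Ccl17* and TATAAA in *Ccl12*. *Ccl6*, *Ccr2* and *Cx3cr1* held none of the 7 motifs in this window. A match is a string of letters and was not tested as a binding site.

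Of the receptors of monocytes and macrophages, *Cx3cr1* and *Ccr2* fell. *Cx3cr1*, the receptor of fractalkine on resident macrophages and patrolling monocytes, was at 497 and 475 in young adult mice and at 259 and 247 in aged mice. The means were 486 ± 15.5 (SD, n = 2 pools) and 253 ± 8.58, a 1.92-fold lower level in aged mice (difference −0.94, SE 0.082, FDR = 0.178). Both of its probes were above background on all arrays and gave −0.93 and −0.95. *Ccr2*, the receptor by which inflammatory monocytes leave the bone marrow and enter tissue, was at 175 and 149 in young adult mice and at 81.7 and 95.4 in aged mice. The means were 162 ± 18.2 and 88.5 ± 9.72, a 1.83-fold lower level (difference −0.87, SE 0.14, FDR = 0.228). The ages did not overlap for either receptor.

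Neither *Ccr1*, which was not above background, nor *Ccr3* was called. *Ccr8*, of regulatory and type 2 helper T cells, lies beside *Cx3cr1* in the genome and was at 85.02 and 99.65 against 97.7 and 129 (difference 0.29, FDR = 0.606). *Ccr9*, of gut-homing lymphocytes, had a difference of −0.14 (FDR = 0.670). *Ccr2* lies in a gene cluster with *Ccr1*, *Ccr1l1*, *Ccr3*, *Ccr9*, *Cxcr6* and *Xcr1*, none of which was called. *Ccr1* and *Xcr1* were not above background on any array.

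The atypical receptors did not pass the test. *Ackr1*, the red cell and venular receptor, was at 594 and 556 in young adult mice and at 573 and 565 in aged mice (difference −0.01, FDR = 0.954). *Ackr2*, a scavenger of inflammatory CC chemokines, had a difference of −0.15 (FDR = 0.540) and *Ackr4*, a scavenger of CCL19 and CCL21, a difference of 0.06 (FDR = 0.817). With *Ackr3* above, the 4 differences ranged from −0.15 to 0.06, with SEs between 0.074 and 0.10.

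**Figure D2:**
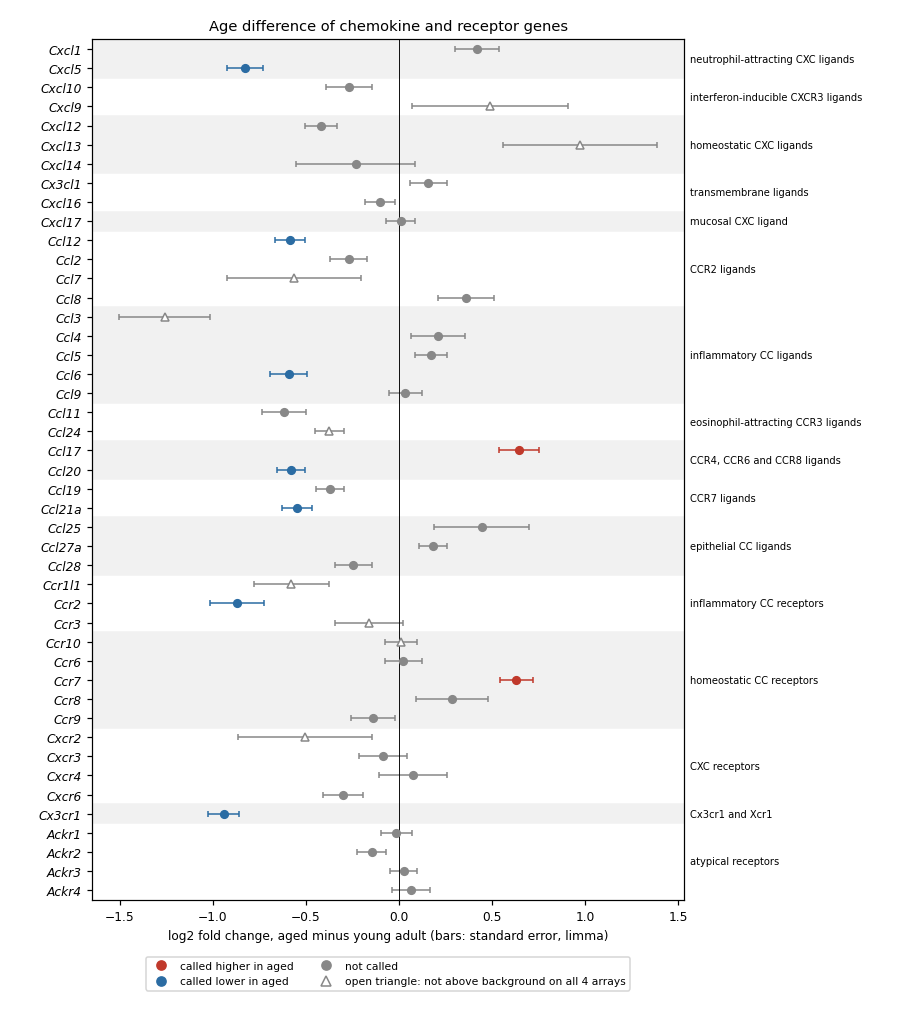
Log2 fold change of aged over young adult mice for the same members, with bars of the standard error of limma's fit, coloured by whether the gene was called. The 7 members called lower lie between −0.94 and −0.55, those called higher lie at 0.63 and 0.64, and the atypical receptors lie close to 0.

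Set side by side, a called ligand and its receptor were both called in the pairs of *Ccl12* with *Ccr2* and of *Ccl21a* with *Ccr7* alone. *Ccl12* (−0.58) and *Ccr2* (−0.87) both fell. *Cx3cr1* fell (−0.94) while the difference of its ligand *Cx3cl1* was 0.16, *Ccl20* fell (−0.58) while that of *Ccr6* was 0.02, and *Ccl21a* fell (−0.55) while *Ccr7* rose (0.63). *Cxcl5* fell (−0.83) beside a *Cxcr2* difference of −0.50 that was not called. The receptors of *Ccl6* and *Ccl17* were not above background on any array.

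Leukocyte markers are given beside the receptors. Of 9 markers of macrophages and monocytes 2 fell, *Cd68* and the mannose receptor *Mrc1*, by 0.78 and 0.65 on the log2 scale, 0 rose and all 9 were below 0, with a median of −0.29. *Csf1r*, the receptor for the macrophage growth factor, had a difference of −0.29 (FDR = 0.379), *Adgre1*, which encodes F4/80, a difference of −0.38 (FDR = 0.412), and *Ly6c2*, which marks inflammatory monocytes, a difference of −0.09 (FDR = 0.755). The summed level of the list was 31565 to 32522 in young adult mice and 27420 to 29707 in aged mice. *Ly6c2* made up most of that sum, at 21830 and 20540 in young adult and 21116 and 18773 in aged mice. Of 5 markers of all leukocytes 1 fell, *Coro1a* (−0.53), while *Ptprc*, which encodes CD45, had a difference of −0.50 (FDR = 0.278). Their summed level was 5387 to 5487 against 4231 to 4282. Of 8 markers of B and plasma cells 0 were called, with a median of −0.14. Their summed level, most of it from *Jchain*, was 8705 to 8920 against 7402 to 8845. The part of these cells in the *Cx3cr1* and *Ccr2* results was not tested.

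Stromal and epithelial markers were called in part. Of 8 fibroblast markers 5 fell and all 8 were below 0, with a median of −0.97 and a summed level of 224990 to 249600 in young adult and 117540 to 125560 in aged mice. Of 8 endothelial markers 5 fell, with a median of −0.60 and a summed level of 15690 to 15753 against 10058 to 10420. Fibroblasts and endothelium are known sources of *Cxcl12*, *Ccl11* and *Ccl2*. Of 8 markers of respiratory and gland epithelium, *Krt5* and *Ltf* fell and *Muc5b* rose, the median was 0.09, and the summed level was 831110 to 832280 against 786530 to 808980. Of 6 osteoblast markers 5 fell, with a median of −0.96, and of 6 smooth muscle and pericyte markers 2 fell. The mature ORN list had 1 gene higher and a median of 0.20, the immature ORN list 1 lower and −0.32, and the sustentacular cell list 1 higher and 0.08. Platelet markers included 1 that fell, *Pf4*, and erythroid markers 0. The part of any of these cells in the chemokine results was not tested.

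**Figure D3:**
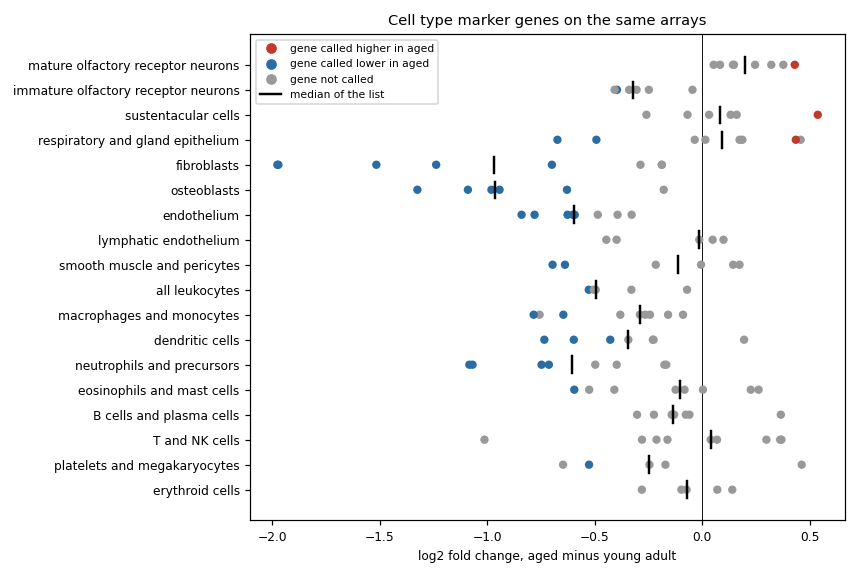
Log2 fold change of aged over young adult mice for each measured gene of the marker lists, with a bar at the list's median. Fibroblast, osteoblast, endothelial and neutrophil lists have the most negative medians, and the lymphatic endothelium and T and NK cell lists have medians near 0.

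Of 103 further genes of chemokine signalling, 1 was called higher and 6 lower, with a median of −0.10. They comprise other ligands and receptors, G protein subunits, kinases, small GTPases and integrins. The regulator of G protein signalling *Rgs13* rose by 0.78 on the log2 scale, from 101 ± 3.17 (SD, n = 2 pools) to 174 ± 18.4. *Rac2*, the GTPase of leukocyte migration, fell by 0.82, *Gng11*, a G protein γ subunit, by 0.77, and *Itgb2*, the β chain of leukocyte integrins, by 0.75. *Pf4*, a platelet CXC chemokine whose symbol lies outside the member rule, fell by 0.53, *Prkcb* by 0.43 and *Stat5b* by 0.43. The related *Ppbp* (−0.65, FDR = 0.315) and the chemerin-binding receptor *Ccrl2* (−0.32, FDR = 0.419) were not called. Of the inhibitory G protein subunits that the receptors use, *Gnai2* had a difference of −0.34 (FDR = 0.291), *Gnai1* of −0.12 and *Gnai3* of −0.02. Among all genes tested, 1.65% were called higher and 2.33% lower, and the counts of this list were not tested against these shares.

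Within the slide that carried both ages, the differences were −0.94 for *Cx3cr1*, −1.10 for *Ccr2*, −0.81 for *Cxcl5* and −0.63 for *Ccl12*. Those of the other calls were −0.57 for *Ccl6*, −0.55 for *Ccl20*, −0.50 for *Ccl21a*, 0.57 for *Ccl17* and 0.62 for *Ccr7*. These are values of 1 array against 1 without a test. Their direction could not differ from that of the calls, because the ages did not overlap for any of the 9. The FDR of the calls depended on having all 4 arrays. With any array left out, 0 genes on the whole array had an FDR below 0.25 (lowest 0.408), although the difference of *Cx3cr1* stayed between −0.99 and −0.90, that of *Ccr2* between −0.98 and −0.76 and that of *Ccl17* between 0.55 and 0.74. With the replicate number as a block, 0 of the 9 calls remained and the lowest FDR on the whole array was 0.433. For a single gene, an exact two-sided permutation test of 2 arrays against 2 cannot give a P below 0.333. *Ccl12*, *Ccl20* and *Ccl21a* lay just under the fold limit, at 1.4997, 1.49 and 1.46-fold lower, and *Ccl6* just over it at 1.51-fold lower.

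**Figure D4:**
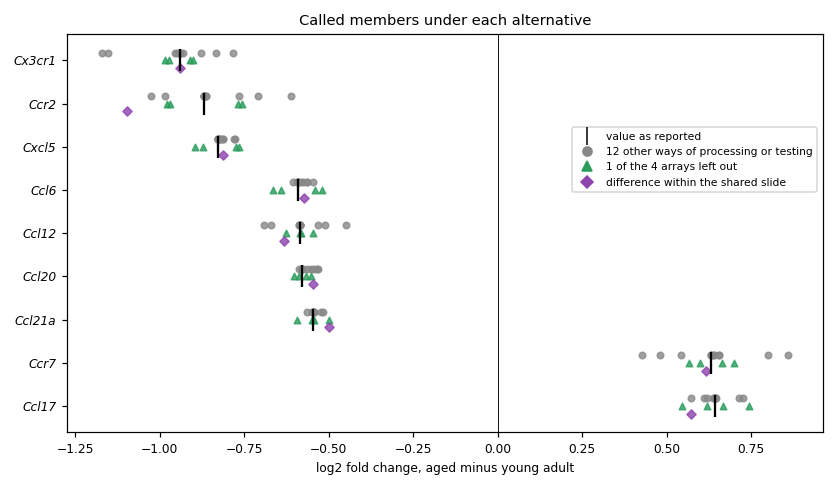
Log2 fold change of each called member as reported (black bar), under the other ways of processing or testing (grey points), with 1 of the 4 arrays left out (triangles) and within the slide shared by both ages (diamonds). No point crosses 0, and *Cx3cr1* and *Ccr2* spread most among the members that fell. For the diamonds the side of 0 was fixed, because the ages did not overlap for any called member.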

How the data were processed

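Septal nasal mucosa RNA of 2 young adult and 2 aged pools was hybridized to Agilent one-color arrays. The authors extracted the spots with Feature Extraction 11.0.1.1 and deposited, per spot, a median signal intensity, a local background intensity and quality flags, and did not normalize these between arrays. Here, limma 3.58.1 (R 4.3.3) subtracted background by its normexp method with an offset of 0. Control and flagged spots were left out, spots of a probe were averaged, arrays were quantile normalized, and probes of a gene were averaged as log2 values. Of 56605 probes, 32994 (58.3%) matched a gene symbol by accession in a RefSeq table. The array was designed on a different build, and probes were assigned to genes without coordinates. Gene coordinates served only to name neighbours and clusters in the genome and to place the promoters. Genes without a value on every array (12) were left out, and 45604 were tested by limma's lmFit and eBayes without covariates, with FDR by the Benjamini-Hochberg method. The fit was also run on simulated data with independent noise per array, which could not show an effect of shared mice or of the shared slide. The spread rests on 2 residual and 1.38 prior degrees of freedom, and the number of arrays limits the precision.

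Members and lists were chosen with earlier results of these data known. Named were the called members, the 10 largest differences and the 10 highest mean levels among measured members, partners of called members, and members whose probes disagree. *Cxcl1*, *Cxcl2*, *Cxcl10*, *Ccl24*, *Ccl28*, *Cxcr3* and *Cxcr6*, and the remaining members given with values, were added after their values were seen. Of the members and marker genes, 2 are not reported here, but they stay in the fit and in the counts. The alternatives tried were other offsets, no background correction, the processed signal, other normalization, flagged spots kept, dim probes left out, the brightest probe, an eBayes trend, the replicate number as a block, the shared slide alone, each array left out and other limits.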

Additional observations from a re-analysis of the deposited data

How the results depend on the processing

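The 7 members called lower and 2 called higher kept their direction under every alternative run. Within the shared slide this could not have been otherwise, because the ages did not overlap for these members. At the limits used in the text, they kept their calls under all alternatives that keep 4 arrays, with few exceptions. These were the replicate block and, for *Ccl6*, the processed signal scaled to the 75th percentile. The count called lower was 11 with a normexp offset of 16, 11 with an offset of 50, 12 without background correction, 11 with the processed signal and quantile normalization, 15 with dim probes left out and 13 with an intensity trend in eBayes. It was 4 under the limits on level and fold change, 0 at an FDR below 0.05 and 13 at a P below 0.05 without an FDR limit. The count called higher was 4 with dim probes left out, 7 with the trend, 0 at an FDR below 0.05 and 4 at a P below 0.05. The share of all genes called in either direction rose too, from 3.98% to 6.55% with the offset of 16 and 10% with that of 50. It was 8.83% without background correction, 9.59% with the processed signal and quantile normalization, 24.2% with dim probes left out and 15.6% with the trend. At a P below 0.05 without an FDR limit it was 13.1%. *Ccl11* joined the calls in 10 of 12 alternatives, *Ccl19* in 8, *Cxcl12* in 7 and *Ccl3* in 6.

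The replicate number as a block left 0 members called in either direction and 0 genes on the whole array (lowest FDR 0.433). Over all genes tested, the difference of array 1 minus array 2 in young adult mice correlated with that in aged mice at −0.08. The numbers were therefore not taken to pair the arrays, although the arrays numbered 1 share a slide. With each array left out in turn, the counts called higher and lower ranged from 0 to 0. The slide as a random block could not be fitted, because age and 3 slides use all degrees of freedom of 4 arrays.

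Differences close to 0 or of dim probes changed sign. *Ccl9* became −0.040 and −0.041 with the processed signal under quantile and 75th percentile scaling. *Ccr1* became 0.014 without background correction and 0.014 and 0.57 with the processed signal under these scalings. *Ccr4* became −0.15 with the processed signal and quantile normalization and −0.12 with the brightest probe, and *Cxcl16* became 0.12 with the brightest probe. With 1 array left out, the difference ranged from −0.062 to 0.033 for *Ackr1*, from −0.028 to 0.096 for *Ccl9*, from −0.77 to 0.058 for *Ccr1*, from −0.062 to 0.11 for *Ccr6*, from −0.028 to 0.045 for *Cxcl17*, from −0.21 to 0.037 for *Cxcr3* and from −0.13 to 0.28 for *Cxcr4*. The cause was not tested. Of 659 such values for 39 named members, 541 kept their direction and their side of the limits, 52 gained a call, 46 lost one, 16 changed sign and 4 moved by more than the spread. Signal over background limits the 22 members not above background on all 4 arrays.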
